A study of Mus musculus with 12 samples.

Results

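Immediate early genes are the first genes that many cells transcribe after a stimulus, and 10 of them, *Fos*, *Fosb*, *Jun*, *Junb*, *Jund*, *Egr1*, *Atf3*, *Ier2*, *Zfp36* and *Nr4a1*, were described here across the immune cells of a mouse tumor. They were chosen by name, and each matched 1 of the 31053 genes of the deposited single-cell RNA-seq matrix. The cells were CD45+ cells of MC38 tumors, a mouse colon adenocarcinoma line grown under the skin of C57BL/6 mice and taken on day 17 after implantation. The mice had received daily injections of the EZH2 inhibitor PF-06821497 at 100 mg/kg or of vehicle, from day 1 for 16 days or from day 10 for 7 days, with 3 mice in each of the 4 groups. EZH2 is the enzyme that trimethylates histone H3 at lysine 27, a repressive mark. Tumors were digested with an enzyme kit, and the CD45+ cells were enriched on magnetic beads before capture.

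The matrix pools 12 libraries, and each barcode carries a library number from 1 to 12. Neither the labels nor the headers of the files state which mouse or treatment group a number stands for, and libraries were not assigned to groups here. EZH2 inhibitor and vehicle were therefore not compared, the matrix was treated as 1 sample, and no p-value is given. Libraries are described one by one or by their lowest, median and highest values.

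Most of these genes are transcribed within minutes of a signal, and their transcripts are short-lived. Fos and Jun proteins pair as the AP-1 transcription factor, in which Fos family members need a Jun family partner to bind DNA. Egr1 is a zinc finger transcription factor, Atf3 is a stress-induced member of the CREB/ATF family, and Nr4a1 is an orphan nuclear receptor known as a reporter of antigen receptor signals in lymphocytes. Zfp36, also called tristetraprolin, is not a transcription factor but an RNA-binding protein that destabilizes inflammatory transcripts such as that of *Tnf*, and Ier2 is a nuclear protein encoded by a short gene. In myeloid cells the group responds to microbial products, cytokines and adhesion, and it can also be induced while cells are handled outside the body.

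The set of RefSeq promoters used here (GRCm38.p6) held 8 of the 10 genes. *Egr1* and *Ier2* were not in that set. Many early genes are known to respond through cAMP response elements, so the 250 bases before each start were searched on both strands for the half-site TGACG and for the full element TGACGTCA. The half-site was present before *Fos*, *Fosb*, *Junb*, *Nr4a1* and *Atf3*, that is in 5 of the 8 promoters, against 17.8% of the 32851 promoters in the set. The full element was in none of the 8 and in 1.55% of all promoters. The last 120 bases before the start are shown for these 5 genes, 5′ to 3′ on the strand of the gene, because they carry the half-sites. Capitals mark the half-site, which reads CGTCA where it lies on the opposite strand.
Fos: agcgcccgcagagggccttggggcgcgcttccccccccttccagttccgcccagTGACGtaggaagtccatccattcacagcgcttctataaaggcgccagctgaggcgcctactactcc
Fosb: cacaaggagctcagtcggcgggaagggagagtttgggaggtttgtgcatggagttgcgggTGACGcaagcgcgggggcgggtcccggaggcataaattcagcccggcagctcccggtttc
Junb: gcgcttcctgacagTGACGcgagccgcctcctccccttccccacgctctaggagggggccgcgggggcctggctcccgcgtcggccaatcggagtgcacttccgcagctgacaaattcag
Nr4a1: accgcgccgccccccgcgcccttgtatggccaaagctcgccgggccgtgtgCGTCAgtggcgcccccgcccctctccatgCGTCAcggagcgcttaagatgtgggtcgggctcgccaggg
Atf3: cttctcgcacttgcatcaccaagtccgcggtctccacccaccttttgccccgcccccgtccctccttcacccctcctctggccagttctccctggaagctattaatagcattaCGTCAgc
These stretches lie at chr12:85473770-85473889 on the plus strand, chr7:19310046-19310165 and chr8:84978749-84978868 on the minus strand, chr15:101266726-101266845 on the plus strand and chr1:191183334-191183453 on the minus strand, in that order. *Fos* and *Nr4a1* hold further half-sites, at 129 to 125 bases before the start of *Fos* and, in the part of the *Nr4a1* window that is not printed, at 233 to 229 and 213 to 209 bases before its start. The *Nr4a1* and *Atf3* windows lie inside the longer gene spans of GENCODE M21 (chr15:101254269-101274795 and chr1:191170296-191218039), which hold transcripts with starts further upstream. A match to these letters is a description of the sequence and does not show that a factor binds there. The AP-1 site TGANTCA was in none of the 8 windows and in 6.75% of all of them, *Fos* alone held TATAAA (12.4% of all), and *Zfp36* alone held a CArG box, the serum response element core (1.47% of all). Bases further than 250 before a start, and the promoters of *Egr1* and *Ier2*, were not searched for any of these motifs.

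A filter on gene number (above 200, below 5000) and on the mitochondrial share of UMIs (up to 10%) passed 128912 of 140639 barcodes, and 97460 of them were placed in classes by gates on UMIs of lineage genes. None of the 10 genes was used in a gate. The class names stand for these gates: macrophages (85843 cells), CD8 T cells (3572), monocytes (2671), neutrophils (2013), *Ccr7* dendritic cells (855) and CD4 T cells (767) had at least 30 cells in 6 or more libraries and were ranked. Type 1 conventional dendritic cells (cDC1, 797 cells), *Cd209a* dendritic cells (189), plasmacytoid dendritic cells (176), natural killer (NK) cells (211) and B cells (315) reached 30 cells in 5, 1, 1, 1 and 2 libraries. Genes not used by the gates were checked: *S100a9* had a median of 28417 CPM in neutrophils and *Apoe* 18137 CPM in macrophages. *Apoe* was also found in monocytes at 26.6% of the macrophage level in the median library. Not every check was highest in its own class. *Lyz2*, a check for macrophages, had a median of 7767 CPM there and 9576 CPM in monocytes. *Ccl17*, a check for *Cd209a* dendritic cells, had 1254 CPM there and a median of 1721 CPM in *Ccr7* dendritic cells.

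Libraries held 21649947 to 158760328 UMIs, and the median cell of a library 2291 to 15081 UMIs. Libraries 1 to 6 carried 11149 to 21036 UMIs of Y-linked genes and libraries 7 to 12 carried 1 in all, although the study describes female mice. Of all barcode sequences, 1.63% occurred in more than 1 library. Library 6 stands apart by transcripts of macrophages in its neutrophils and T cells: *Apoe* reached 40.0% of the macrophage level in its 37 neutrophils, against 4.29 to 17.4% in the other libraries, and 16.1% in its CD8 T cells, against 1.51 to 6.25%. In monocytes *Apoe* was highest in library 4, at 48.4% of the macrophage level, against a median of 26.6%. Library 4 also stands apart by heat shock transcripts: *Hspa1a* was at 1532 CPM in its macrophages and at 55.1 to 319.99 CPM in the others, and at 2981 CPM in its monocytes and 28.3 to 464 CPM in the others. Its neutrophils had 862 CPM of *Hspa1a*, below 3 of the other 10 libraries (23.7 to 1180 CPM), while *Hsph1* was highest there, with 74.9 CPM against 0 to 37.8 CPM. Counts of the 10 genes against neutrophils and the range over neutrophil libraries are given with and without library 6. Ranges by class, ranks and the counts of other gene lists include all libraries unless stated.

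Levels are UMIs of a gene per 1000000 UMIs of all cells of a class in 1 library (CPM). A gene is called higher in a class when its CPM was higher there in every library with at least 30 cells of both classes. The share of all genes that meets the same rule is given as the background of each count, among genes with a median of at least 10 CPM in either class. Ratios are medians over libraries of log2(CPM + 1), turned into folds.

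Neutrophils had the highest median level of 9 of the 10 genes among the 6 ranked classes, and *Fosb* was the exception. These levels are shares of UMIs and not amounts per cell. Neutrophils were the shallowest of the 6 classes, with a median of 1180 UMIs per cell in the median library against 8843 in macrophages. The lowest median was that of CD8 T cells for *Fos*, *Fosb*, *Jun*, *Junb*, *Atf3* and *Zfp36* and that of *Ccr7* dendritic cells for *Jund*, *Egr1*, *Ier2* and *Nr4a1*. The 10 genes summed to a median of 11700 CPM in neutrophils, 6404 CPM in monocytes, 5667 CPM in macrophages, 4169 CPM in CD4 T cells, 2827 CPM in *Ccr7* dendritic cells and 2461 CPM in CD8 T cells. Of the 50 neighbouring pairs in the rankings of the 10 genes, 16 were apart in every shared library, so most neighbouring ranks were not separated. Pairs that shared fewer than 6 libraries were counted among the latter.

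**Figure D1:**
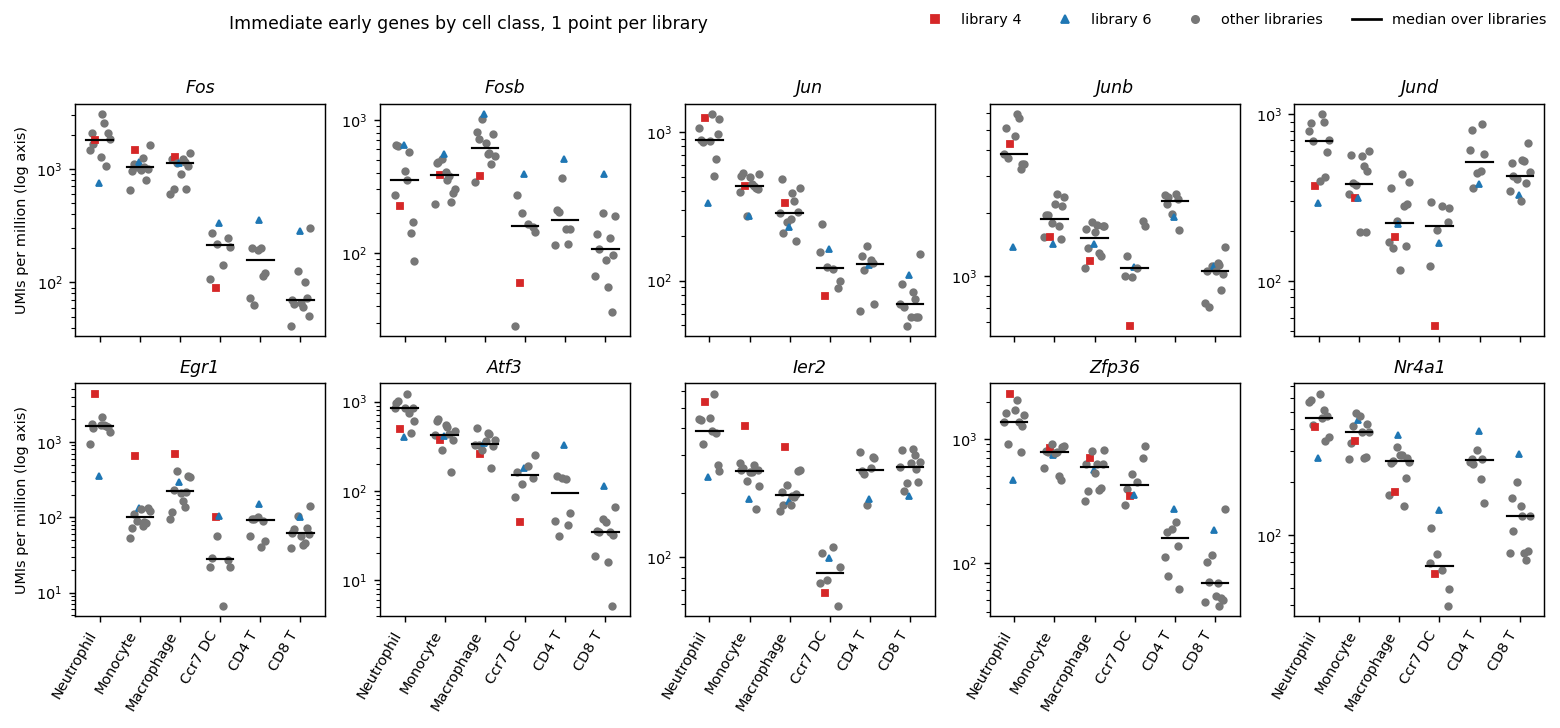
Level of each gene (CPM, log axis) in 6 cell classes, with 1 point per library and a black line at the median. Neutrophils have the highest median in every panel but that of Fosb, the Egr1 panel shows library 4 above all other libraries in neutrophils, monocytes and macrophages, and library 6 is the lowest neutrophil point in 9 of the 10 panels.

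Among the Fos family, *Fos* was found at 745 to 3025 CPM in neutrophils (median 1786), at 596 to 1387 CPM in macrophages (median 1120) and at 647 to 1626 CPM in monocytes (median 1030). The ranges of these 3 myeloid classes overlapped, and no neighbouring pair among the 3 was apart. *Ccr7* dendritic cells, apart from monocytes in 8 of 8 libraries, followed with a median of 211 CPM and CD4 T cells with 157 CPM. CD8 T cells were lowest, at 41.4 to 301 CPM with a median of 70.6. *Fos* was thus lower in CD8 T cells than in macrophages of the same library in all 11 libraries, 11.3-fold in the median.

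*Fosb*, whose protein pairs with Jun proteins as that of *Fos* does, had another order. Macrophages ranked first with 342 to 1102 CPM (median 615), before monocytes with 233 to 554 CPM (median 384) and neutrophils with 87.1 to 653 CPM (median 355). In cDC1 its 5 libraries held 416 to 662 CPM, within the range of macrophages. *Fosb* was higher in macrophages than in neutrophils in 10 of 11 libraries and higher than in monocytes in 11 of 12, so neither difference held in every library. The exceptions were small: in library 4, monocytes had 387 CPM and macrophages 378 CPM.

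Of the Jun family, *Jun* was ordered most clearly. Neutrophils had 331 to 1313 CPM (median 886), monocytes 270 to 530 CPM (median 430) and macrophages 185 to 480 CPM (median 286), and each was above the next in every library that held both. CD4 T cells (62.3 to 170 CPM, median 129) were below macrophages in all 8 shared libraries. CD8 T cells had the lowest median, 69.0 CPM.

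*Junb* was found in most cells of every ranked class. Its median was 3822 CPM in neutrophils, 2268 CPM in CD4 T cells, 1871 CPM in monocytes, 1521 CPM in macrophages, 1095 CPM in *Ccr7* dendritic cells and 1054 CPM in CD8 T cells. No step in the order of its classes was separated in every shared library. Neutrophils were above CD4 T cells in 6 of 7 shared libraries. The exception was library 6, with 1372 CPM in neutrophils and 1906 CPM in CD4 T cells. Without library 6 this step was separated. After thinning each cell to 1000 UMIs, which leaves out shallower cells, *Junb* was found in 90.9% of neutrophils and in 56.7% of CD8 T cells of the median library.

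*Jund*, the Jun family member known for its steady expression in resting cells, was the only gene of the 10 that was higher in CD8 T cells than in macrophages in every library. CD8 T cells had 300.5 to 675 CPM (median 430) and macrophages 116 to 439 CPM (median 224). CD4 T cells had 361 to 872 CPM (median 518), second to neutrophils with 296 to 1003 CPM (median 688). Both B cell libraries, with 532 and 942 CPM, were within the range of the neutrophils.

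*Egr1* had the widest spread of class medians. Neutrophils had 355 to 4333 CPM (median 1613), macrophages 94.3 to 688 CPM (median 222) and monocytes 52.8 to 645 CPM (median 100.3). Neutrophils were above macrophages in 11 of 11 libraries, and macrophages above monocytes in 12 of 12. CD4 T cells (median 91.6 CPM) and CD8 T cells (median 62.8 CPM) came next, and *Ccr7* dendritic cells were lowest with a median of 27.9 CPM.

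*Atf3* was at 402 to 1215 CPM in neutrophils (median 841), 162 to 637 CPM in monocytes (median 427) and 180 to 501 CPM in macrophages (median 335). Neighbouring classes in this order were not apart, but macrophages were above *Ccr7* dendritic cells (median 151 CPM) in all 8 shared libraries. In CD8 T cells the median was 34.6 CPM, or 10.0% of the macrophage level of the same library. *Apoe*, the macrophage transcript, stood at 3.02% of the macrophage level in CD8 T cells of the median library, and the part of macrophage RNA in so low a level was not tested.

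*Ier2* varied least over macrophage libraries apart from *Junb*, from 164 to 327 CPM (median 195). Neutrophils had a median of 390 CPM, CD8 T cells 265 CPM, CD4 T cells 257 CPM and monocytes 253 CPM, and these 4 classes were not apart from their neighbours. *Ccr7* dendritic cells, with 59.2 to 111 CPM, lay below macrophages in all 8 shared libraries, and here the ranges of the 2 classes did not overlap.

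*Zfp36*, the RNA decay factor, was at 461 to 2296 CPM in neutrophils (median 1372), 467 to 904 CPM in monocytes (median 784) and 314 to 813 CPM in macrophages (median 594). *Ccr7* dendritic cells had a median of 423 CPM and CD4 T cells 157 CPM. CD8 T cells were lowest, with 45.05 to 271 CPM (median 68.4), below CD4 T cells in 8 of 8 libraries. The myeloid classes, dendritic cells included, were thus above both T cell classes in their medians.

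*Nr4a1*, the nuclear receptor, had a median of 464 CPM in neutrophils, 386 CPM in monocytes, 265 CPM in CD4 T cells, 263 CPM in macrophages, 127 CPM in CD8 T cells and 66.2 CPM in *Ccr7* dendritic cells. CD4 T cells and macrophages had almost the same median, and each was higher in 4 of their 8 shared libraries. In cDC1 it was at 330.1 to 517 CPM, above the median of macrophages in all 5 libraries.

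The classes seen in 1 library give values with a counting error only. In the 84 NK cells of library 5, *Nr4a1* was at 255 CPM (exact Poisson 95% interval 194 to 329) and *Fos* at 164 CPM (116 to 225). In library 6, 44 *Cd209a* dendritic cells had 537 CPM of *Fos* (387 to 726) and 60 plasmacytoid dendritic cells 466 CPM (333 to 635). A comparison of NK with CD8 T cells over libraries could not be made.

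Neutrophils, short-lived phagocytes that enter from the blood, were set against macrophages, the most abundant class. *Jun*, *Jund*, *Egr1* and *Atf3* were higher in neutrophils in 11 of 11 libraries, and 8.53% of the 7691 genes compared met this rule. None of the 10 was higher in macrophages in every library, a rule that 24.4% of all genes met. The median log2 difference, macrophage minus neutrophil, was -1.27 over the 10 genes and 0.82 over all genes compared. *Egr1* was 7.46-fold higher in neutrophils, *Jun* 3.36-fold, *Junb* 2.89-fold, *Zfp36* 2.59-fold, *Jund* 2.48-fold and *Atf3* 2.35-fold.

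*Fos*, *Junb*, *Ier2*, *Zfp36* and *Nr4a1* were higher in neutrophils in 10 of the 11 libraries. Library 6, whose 37 neutrophils carried *Apoe* at 40.0% of the macrophage level, was the exception for all but *Ier2*. Without library 6, 8 of the 10 genes were higher in neutrophils in all 10 remaining libraries, against 13% of all genes, and 39.4% of all genes were higher in macrophages. *Fosb* and *Ier2* were the others. *Fos* then had 1067 to 3025 CPM in neutrophils and *Junb* 3225 to 5928 CPM, and the median log2 difference of the 10 genes was -1.31. With trimmed mean (TMM) scaling, which sets the scale from a trimmed mean of gene ratios, all 4 medians kept their direction but only *Jun* was higher in neutrophils in every library. That scaling gave 29.96% of all genes as higher in macrophages and 5.48% as higher in neutrophils, and moved the median of all genes to 0.58.

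**Figure D2:**
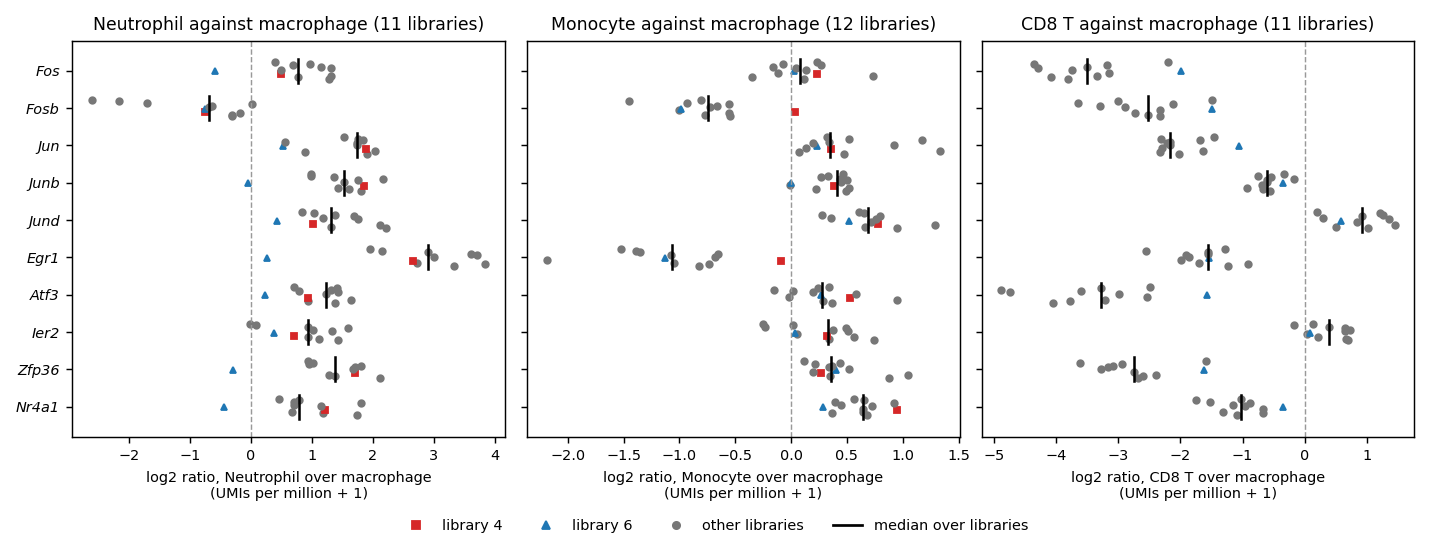
Log2 ratio of the CPM of each gene in neutrophils, monocytes and CD8 T cells over that in macrophages of the same library, with 1 point per library and a black line at the median. In the left panel 9 genes have medians above 0 and library 6 lies below or nearest to 0 for most of them, and in the right panel Jund lies above 0 and 8 genes lie below 0 in every library.

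Monocytes, blood-derived cells that can become macrophages in tissue, were compared with macrophages in 12 libraries. *Jun*, *Jund*, *Zfp36* and *Nr4a1* were higher in monocytes in 12 of 12 libraries, against 10.6% of all genes, by 1.27-, 1.61-, 1.28- and 1.57-fold. *Egr1* was higher in macrophages in 12 of 12 libraries, against 16.8% of all genes, by 2.09-fold. *Fosb* would have joined it without library 4, the library with the high heat shock transcripts and with *Apoe* in monocytes at 48.4% of the macrophage level. The medians of the 10 genes and of all genes were -0.34 and 0.09 on the log2 scale, macrophage minus monocyte.

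Monocytes were also set against neutrophils, a comparison added after the levels had been seen. *Jun*, *Egr1* and *Ier2* were higher in neutrophils in 11 of 11 libraries, against 5.99% of all genes, and none of the 10 was higher in monocytes, against 15.4%. *Egr1* was 13.7-fold higher in neutrophils. Without library 6 the count was 8 of 10, against 10.8% of all genes, and left out *Fosb* and *Nr4a1*.

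In T cells the early genes were low but not uniformly so. *Fos*, *Fosb*, *Jun*, *Junb*, *Egr1*, *Atf3*, *Zfp36* and *Nr4a1* were higher in macrophages than in CD8 T cells in 11 of 11 libraries, against 26% of all genes. The folds ran from 1.52 for *Junb* and 2.05 for *Nr4a1* to 9.68 for *Atf3* and 11.3 for *Fos*. *Jund* was 1.88-fold higher in CD8 T cells in every library, which 24.6% of all genes were, and *Ier2* was higher there in 10 of 11. The median over the 10 genes was 1.86 on the log2 scale and that of all genes -0.07. The cells of the 2 classes differed in depth, and after thinning to 1000 UMIs *Fos* was found in 2.93 to 19.1% of CD8 T cells by library (median 7.21%) and in 38.4 to 66.2% of macrophages (median 56.3%). The part of macrophage RNA in the shares of CD8 T cells was not tested.

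CD4 T cells, added to the comparisons after the levels had been seen, carried more early transcripts than CD8 T cells. *Fosb*, *Junb*, *Zfp36* and *Nr4a1* were higher in CD4 T cells in 8 of 8 libraries, by 1.69-, 2.06-, 1.67- and 1.79-fold, against 7.46% of all genes. None of the 10 was higher in CD8 T cells, against 4.83% of all genes. *Junb* had 1654 to 2463 CPM in CD4 T cells and 713 to 1376 CPM in CD8 T cells, with no overlap. With TMM scaling the count was 3, and the shares of all genes turned to 10.5% higher in CD8 and 3.98% higher in CD4 T cells. Against macrophages, *Junb* and *Jund* were higher in CD4 T cells in 8 of 8 libraries (16.9% of all genes), and *Fos*, *Fosb*, *Jun*, *Egr1*, *Atf3* and *Zfp36* were higher in macrophages (18.2%). The 2 of the 10 genes on the T cell side were near the share of all genes. TMM scaling left *Jund* alone on that side, again near the share of all genes, and gave background shares of 10.3% and 30.1%.

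*Ccr7* dendritic cells, mature cells that carry antigen to lymph nodes, were likewise compared with macrophages after the levels had been seen. All of the genes but *Junb* and *Zfp36* were higher in macrophages than in these cells in 8 of 8 libraries, against 33.1% of all genes, and none was higher in the dendritic cells, against 19.8%. *Egr1* differed most, by 6.98-fold, followed by *Fos* by 5.29-fold and *Fosb* by 4.24-fold. *Jund* differed least among the 8, by 1.35-fold.

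Smaller groups within a class, also added after the levels had been seen, differed in few of the genes. Neutrophils without a UMI of *Retnlg*, a granule gene of circulating neutrophils, had more *Nr4a1* than those with one in 9 of 9 libraries (medians 636 and 411 CPM), against 2.69% of all genes. None of the 10 was higher with *Retnlg* in every library, against 0.852%. Cells without *Retnlg* were also shallower, with a median of 919 UMIs against 1462, and the part of this was not tested. *Nr4a1* was also higher in macrophages gated on *Arg1*, arginase, than in those gated on *Cxcl9*, an interferon-induced chemokine, in 12 of 12 libraries (272 and 225 CPM, 13.7% of all genes). *Zfp36* was higher in the *Cxcl9* macrophages in 12 of 12 libraries, by 1.07-fold (9.03% of all genes). For these 2 macrophage groups this was 1 of the 10 genes in each direction, near the shares of all genes.

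CD8 T cells with and without *Havcr2*, the gene of the checkpoint receptor TIM-3, did not separate by any of the 10 genes in all 8 libraries, a rule that 2.78% and 4.16% of all genes met in the 2 directions. *Fosb*, *Egr1* and *Atf3* were higher with *Havcr2* in 7 of 8, and *Ier2* was lower in 7 of 8. No share of all genes was computed for 7 of 8 libraries, so these cannot be read against one. Cells with *Havcr2* were also deeper, with a median of 5516 UMIs against 2528, and the part of this in these values was not tested. In cycling CD8 T cells *Junb* (940 against 1161 CPM) and *Zfp36* (54.3 against 83.2 CPM) were lower in 8 of 8 libraries, against 8.1% of all genes, and none of the 10 was higher, against 13.8%. Cycling cells had a median of 6797 UMIs against 2452 in the others, and the part of this was not tested.

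Within macrophages few values of the 10 genes lay over 2-fold from the other libraries. The summed CPM of the 10 genes ran from 3553 in library 1 to 6515 in library 12, a 1.83-fold range. Some single genes ranged more widely than the sum: *Egr1* had 94.3 to 688 CPM, *Jund* 116 to 439 CPM and *Fosb* 342 to 1102 CPM. Of the 120 pairs of gene and library, 1 lay over 2-fold above the median of the other libraries (0.47% of such pairs over all genes) and 1 over 2-fold below it (0.564%). Both were *Egr1*: library 4 had 688 CPM, 3.18-fold above the median of the others, and library 1 had 94.3 CPM, 2.41-fold below. In library 4, 1.66% of all genes were over 2-fold higher, and in library 1, 0.81% were over 2-fold lower. Library 1 was also the lowest macrophage library of *Fos*, *Fosb*, *Junb*, *Ier2* and *Zfp36*.

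Library 4 was also the highest library of *Egr1* in monocytes and neutrophils. Over all libraries, monocytes had 1 pair of gene and library over 2-fold above the others (2.23% of such pairs over all genes) and 2 below (3.58%), *Egr1* in library 1 (1.52%) and *Atf3* in library 10 (9.55%). Monocytes had 645 CPM against 52.8 to 135 CPM in the other libraries, and neutrophils 4333 CPM against 355 to 2152 CPM. The monocytes of library 4 also had the highest *Apoe* of the 12 libraries, at 48.4% of the level of its macrophages, whose *Egr1* was 688 CPM, and the part of macrophage RNA was not tested. Of all genes, 7.62% in monocytes and 7.89% in neutrophils were over 2-fold higher in library 4. In *Ccr7* dendritic cells library 4 had 101 CPM, below library 6 with 103.8 CPM and above the other libraries, which had 6.71 to 57.1 CPM, so that it was the highest there too without library 6. Among heat shock genes, 5 of 11 were over 2-fold higher in library 4 macrophages: *Hspa1a*, *Hspa1b*, *Hspb1*, *Hsph1* and *Dnajb1*. *Fos* in macrophages of library 4 was 1262 CPM and *Fosb* 378 CPM, neither over 2-fold from the others. Whether *Egr1* and the heat shock genes shared a source in this library was not tested.

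**Figure D3:**
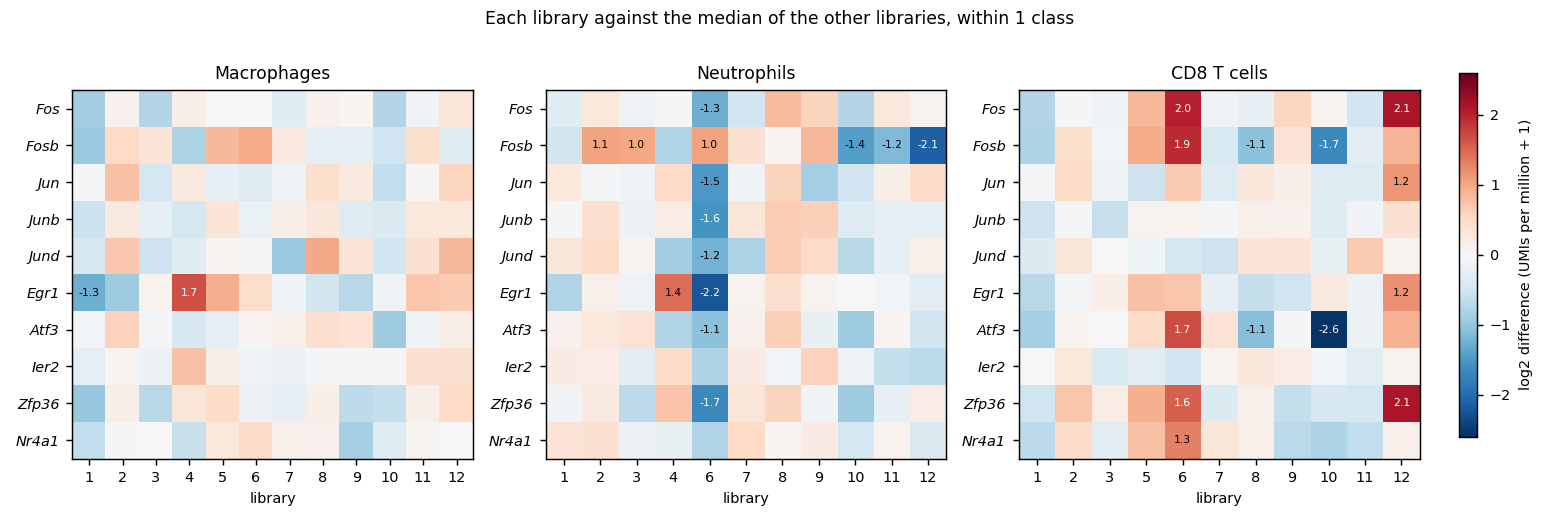
Log2 difference of each library from the median of the other libraries (CPM + 1) for the 10 genes in macrophages, neutrophils and CD8 T cells, with the number printed where it exceeds 1 in size. Macrophages show 2 such values, both of Egr1, neutrophils show most of theirs in library 6, and CD8 T cells show theirs in libraries 6, 8, 10 and 12.

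In neutrophils the summed CPM ran from 5122 in library 6 to 17888 in library 8, a 3.49-fold range that was 1.97-fold without library 6 and 10.0-fold with TMM scaling. In library 6, *Fos*, *Jun*, *Junb*, *Jund*, *Egr1*, *Atf3* and *Zfp36* were over 2-fold below the other libraries and *Fosb* was over 2-fold above, where 21.4% and 28.3% of all genes were. Neutrophils had 4 such pairs above the others of 110 (9.04% over all genes) and 10 below (12.4%), and outside library 6 all were of *Fosb* but that of *Egr1* in library 4. *Fosb* had 653 CPM in library 2, 632 CPM in library 3, and 141, 172 and 87.1 CPM in libraries 10, 11 and 12. The shares of all genes past 2-fold in the same direction were 7.04 and 13% in libraries 2 and 3 and 10, 9.63 and 9.6% in libraries 10, 11 and 12. *Apoe* stood at 14.3% and 8.03% of the macrophage level in the neutrophils of libraries 2 and 3, and at 8.77, 5.69 and 4.78% in those of libraries 10, 11 and 12.

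CD8 T cells had 9 pairs of gene and library over 2-fold above the others (1.5% over all genes) and 4 below (3.63%), of 110. The 4 were *Fosb* and *Atf3* in libraries 8 (4.3% of all genes) and 10 (16.1%). Library 6 held *Fos*, *Fosb*, *Atf3*, *Zfp36* and *Nr4a1* (4.07% of all genes) among the higher ones, with *Apoe* at 16.1% of the macrophage level. Library 12 held *Fos*, *Jun*, *Egr1* and *Zfp36* (2.02% of all genes), with *Apoe* at 2.45%. Its 53 CD8 T cells had 301 CPM of *Fos* (147 UMIs, exact Poisson 95% interval 255 to 354), where the other libraries but library 6 lay at 41.4 to 125 CPM. Library 12 was also the highest library of *Fos* in macrophages and monocytes. In library 10, a single UMI of *Atf3* in 68 cells gave 5.15 CPM (exact Poisson 95% interval 0.131 to 28.7).

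Single cells were compared after thinning each to 1000 UMIs, in libraries with at least 30 such cells of a class. Shallower cells were left out: 636 neutrophils, with 1311 kept, and 424 macrophages, with 85419 kept. In libraries 1, 2, 7 and 9 more neutrophils were left out than kept. The neutrophil values that follow thus describe the deeper neutrophils. A neutrophil then held a mean of 4.73 of the 10 genes in the median library, a monocyte 3.53, a macrophage 3.47, a CD4 T cell 2.15, a *Ccr7* dendritic cell 1.96 and a CD8 T cell 1.58. Every neutrophil library (3.83 to 5.30) lay above every macrophage library (2.54 to 3.79). At least 5 of the genes were found in 57.4% of neutrophils, 27.2% of macrophages and 1.42% of CD8 T cells. None of them was found in 16.4% of CD8 T cells and in 4.42% of macrophages.

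**Figure D4:**
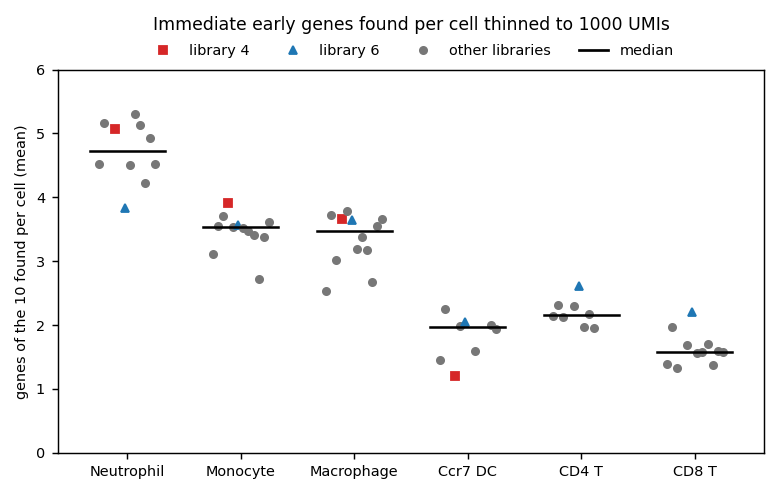
Mean number of the 10 genes found per cell after thinning to 1000 UMIs, by class, with 1 point per library of at least 30 thinned cells and a black line at the median. Neutrophil libraries lie between 3.83 and 5.30 genes, above all libraries of the other classes but 1 of monocytes, and CD8 T cells have the lowest median with 1.58.

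Within macrophages the genes were found together in the same cells. Of the 45 pairs of genes, 38 had the one more often in cells with the other in all 12 libraries. For the 734 other genes found in at least as large a share of thinned macrophages as *Egr1*, the least often found of the 10, this held for 5.61% of their pairs with these genes. *Fos* was found in 71.6% of library 12 macrophages with a *Jun* UMI and in 57.7% of those without, and in 48.4% and 35.7% in library 1, and it was found more often with *Jun* in 12 of 12 libraries.

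*Egr1* and *Jun* had the highest ratio: *Egr1* was found in 28.2% of macrophages with *Jun* and in 14.1% of those without, each as the median of 12 libraries, and the median of the 12 ratios was 1.73. The 7 pairs that did not hold in every library were *Jun* with *Fosb*, *Junb* and *Nr4a1*, *Jund* with *Ier2* and *Nr4a1*, and *Atf3* with *Ier2* and *Nr4a1*. These shares are taken over cells of a class that itself holds several states, so they describe the class as gated. In neutrophils and in CD8 T cells none of the 45 pairs held in every library, with median ratios of 1.11 and 1.24 against 1.22 in macrophages. No share over other genes was computed in those 2 classes, so these counts cannot be read against one.

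**Figure D5:**
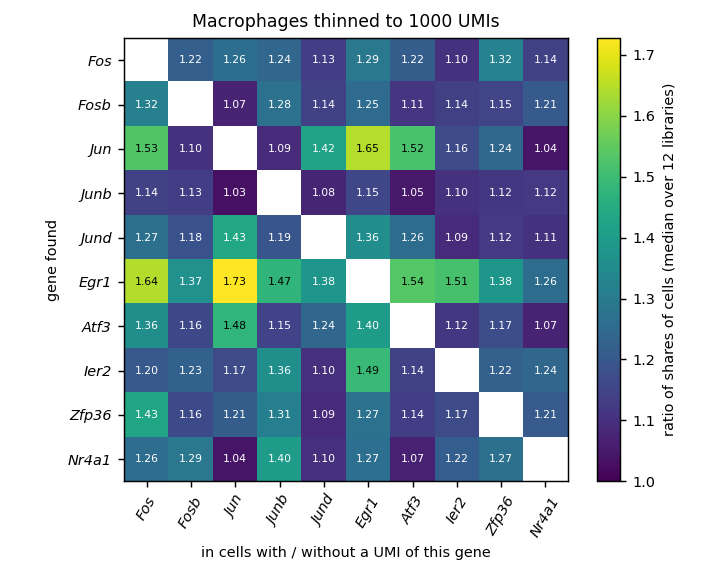
Share of thinned macrophages in which the gene of a row was found, in cells with a UMI of the gene of a column over cells without, as the median ratio of 12 libraries. All ratios plotted lie above 1, from 1.03 for Junb with Jun to 1.73 for Egr1 with Jun.

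Other early response genes, a list of 32 names of which 30 are in the matrix, followed the 10 in some comparisons and not in others. Of the 27 with enough counts, 14 were higher in neutrophils than in macrophages in every library and 1 was higher in macrophages, where 8.53% and 24.4% of all genes were, with a median log2 difference of -2.00 against 0.82 over all genes. Without library 6 these shares of all genes were 13% and 39.4%, and the counts of this list are given with library 6 only. The 4 with the largest ratio were *Gadd45b*, a stress response gene (2273 against 209 CPM), *Maff*, a small Maf transcription factor (273 against 32.1 CPM), *Nfkbia* (3254 against 402 CPM) and *Nfkbiz* (1477 against 179 CPM). The last 2 encode proteins of the IκB family, which bind NF-κB. Monocytes exceeded macrophages in 8 of 26 (10.6% of all genes), led by *Zfp36l2* and *Nr4a2*, and fell below them in none (16.8%). Against monocytes, 10 of 27 were higher in neutrophils (5.99%) and 2 in monocytes (15.4%).

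For CD8 T cells against macrophages, 8 of 26 were higher in macrophages (26% of all genes) and 4 in CD8 T cells (24.6%), so the first share was near that of all genes. Against CD4 T cells, 6 of 26 were higher in macrophages (18.2%) and 7 in CD4 T cells (16.9%), with a median log2 difference of -0.28, macrophage minus CD4 T cell, where that of the 10 genes was 1.18. Against *Ccr7* dendritic cells, 14 of 27 were higher in macrophages (33.1%) and 8 in the dendritic cells (19.8%), where none of the 10 was. CD4 T cells were higher than CD8 T cells in 11 of 26 (7.46% of all genes) and lower in none (4.83%), led by *Gadd45b* (810 against 203 CPM). In cycling CD8 T cells 12 of 24 were lower (8.1%) and none higher (13.8%). In *Arg1* macrophages 7 of 26 were higher than in *Cxcl9* macrophages, with *Ier3* and *Egr2* among them (13.7% of all genes), and 3 were lower (9.03%).

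Heat shock genes were measured beside them. Of 10 with enough counts, 4 were higher in macrophages than in neutrophils in every library, *Hspd1*, *Hspe1*, *Hsph1* and *Hspa8*, and none was higher in neutrophils, where 24.4% and 8.53% of all genes were. Their median log2 difference of 0.21, macrophage minus neutrophil, was below the 0.82 of all genes. Against CD8 T cells, 4 of 10 were higher in the T cells (24.6% of all genes) and none in macrophages (26%). The summed level of the 11 had medians of 5240 CPM in macrophages, 4245 CPM in neutrophils and 5815 CPM in CD8 T cells.

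The genes whose medians over the 6 classes were most like the mean of the 10 were *Socs3*, *Rnf149*, *Smox*, *Jdp2* and *Cux1*, with Pearson r of 0.998 to 0.991 over 6 points. The 10 genes themselves did not share one profile: their r with this mean ran from 0.51 for *Jund* to 0.96 for *Jun*. *Socs3* encodes a feedback inhibitor of cytokine signaling and *Jdp2* a relative of Jun and Atf3 proteins. Over the 12 macrophage libraries the most alike were *Sat1* (r = 0.88), *Dusp1* (0.85), *Klf6* (0.82), *Pfkfb3* (0.82) and *Rasa4* (0.82). Among the 10 genes, r over these libraries ran from 0.43 for *Egr1* to 0.91 for *Zfp36*. *Dusp1*, a phosphatase of MAP kinases, had 317 to 949 CPM there, and *Dusp1*, *Klf6* and *Socs3* are themselves on the list of other early genes. These values are descriptions over few points that share libraries, depth and normalization.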

How the data were processed

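Single Cell 3′ v3 libraries (10x Genomics) of CD45+ cells were deposited by the authors as 1 matrix of UMI counts, 31053 genes by 140639 barcodes, not normalized. The labels name mm10, Cell Ranger 2.1.1 and Seurat, while the matrix header names software version 3.0.2. Members and gene lists were chosen with earlier results of these data known. Named genes were the 10 members, the 4 called genes of each list with the largest median ratio, and the 5 genes most like the members.

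The filter on barcodes was a gene number above 200 and below 5000 and a mitochondrial share of UMIs of up to 10%. Gates used UMIs of lineage genes, with at most 1 UMI of other lineages, and the 88 cells that passed more than 1 gate were left out. No doublet caller was run. UMIs were summed by class and library and scaled to CPM, with a pseudocount of 1 CPM in log2 ratios. Thinning used 1 random draw of 1000 UMIs per cell. Scripts used Python 3.11.15, scipy 1.17.1 and edgeR 4.0.16 for TMM factors only, and were tested on simulated counts. Intervals are exact and cover counting error only. Libraries have 53875210 UMIs or more except library 10, with 21649947. Since no label assigns a library number to a group, no count model or test was run. Reads shared by genes with overlapping or similar sequences were counted as the authors' pipeline did. RefSeq promoters and GENCODE M21 positions are on GRCm38.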

Additional observations from a re-analysis of the deposited data

How the results depend on the processing

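Counts of members called in 1 direction and the range over libraries were recomputed under 13 alternatives; of 227 values 195 stayed within 1.5 times of the main one, and of 492 values of single genes 461 kept their direction in every library, 31 kept it in the median only and none turned. The 4 genes higher in neutrophils than in macrophages became 8 with 2 times the positive lineage UMIs, 0 UMIs of other lineages, a mitochondrial limit of 5%, at least 100 cells, without library 6 and without libraries 4 and 6, and 1 with TMM scaling. The share of all genes moved as well, from 8.53% to 12.1, 11.8, 12.8, 16.01, 12.96, 13.3 and 5.48% in that order. Of the 10, 1 was higher in macrophages with 0 UMIs of other lineages, where 39.4% of all genes were. The 3 higher in neutrophils than in monocytes became 6, 7, 8, 5 and 9 with 2 times the UMIs, 0 other UMIs, the 5% limit, thinning to 1000 UMIs and at least 100 cells, and 8 without library 6 or libraries 4 and 6, where the share of all genes went from 5.99% to 11.7, 10.2, 10.7, 4.26, 16.2, 10.8 and 11.5%, over 7, 10, 10, 10, 5, 10 and 9 libraries. In CD4 against CD8 T cells, 2 times the UMIs and at least 100 cells gave 9 higher in CD4 and 1 in CD8 T cells, but left 2 libraries and 1 library of 8, so that most or all genes fell to one side by construction and these counts say nothing of stability. Weighting each cell alike gave 2 higher in CD8 T cells than in macrophages (23.05% of all genes). Macrophages were higher than monocytes in 2 genes with thinning, with each cell weighted alike, without library 4 and without libraries 4 and 6 (7.95, 15.5, 18.3 and 20.9% of all genes). TMM scaling gave 1 higher in CD4 T cells than in macrophages (10.3%). The 3.49-fold range over neutrophil libraries became 2.18 with 2 times the UMIs, 1.81 with 0 other UMIs, 2.01 with the 5% limit, 10.0 with TMM scaling and 1.97 with at least 100 cells, without library 6 and without libraries 4 and 6. The 2 settings that leave out library 6 were chosen after seeing the data. The cause of these changes was not tested. Libraries of neutrophils and macrophages compared were 11 as reported and 8, 10, 10 and 7 with 2 times the UMIs, 0 other UMIs, the 5% limit and at least 100 cells. Without library 4, which also left 10, the count of genes higher in neutrophils stayed at 4 (8.75% of all genes).

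Cell classes were compared within libraries throughout. Those comparisons were thus paired by library. EZH2 inhibitor and vehicle were not compared because no label states which sample a library number stands for. The CD8 T against NK comparison gave no value since NK cells reached 30 in 1 library. Of the 6 ranked classes, neutrophils were the shallowest, with a median of 1180 UMIs per cell in the median library, against 8843 in macrophages.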
